A study of Mus musculus with 4 samples.

Results

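Among 6237 liver cell barcodes kept from 4 droplet single-cell RNA libraries, 182 met a rule for endothelial cells, the cells that line blood vessels. A barcode was a member if C1qa, C1qb and C1qc, complement genes of macrophages, together gave under 5 of each 1000 unique molecular identifiers (UMIs, counts of captured RNA molecules). It also needed at least 1 UMI of Kdr and at least 1 of Ptprb, Clec4g, Cldn5 or Tek. No UMI was allowed of the lymphoid genes Cd3e and Cd79a or of Siglech, a marker of plasmacytoid dendritic cells. Control 1 and 2 gave 30 and 101 members, NASH 1 and 2 gave 27 and 24. All libraries are from livers of C57BL/6J mice, fed either a control diet or the Amylin liver diet (nash-amln), a feeding model of nonalcoholic steatohepatitis (NASH), in which the liver turns fatty, inflamed and scarred. Both diets were handled alike: livers were digested with flavopiridol, a transcription inhibitor, in the buffer, and CD45+ CD146- cells were sorted. CD45, encoded by Ptprc, is a leukocyte protein, and CD146, encoded by Mcam, is found on endothelial cells, so the members are endothelial cells that passed a sort set against them and are not a sample of the liver endothelium. No source used here gives age, sex, time on diet or the number of mice behind a library. The p-values therefore reflect library-to-library spread alone, which may be technical.

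Liver sinusoids are lined by endothelial cells with open pores and no continuous basement membrane, through which plasma reaches hepatocytes. These cells clear hyaluronan, immune complexes and other waste from blood through scavenger receptors such as stabilins, the mannose receptor and the Fc receptor FcγRIIb. They also signal to hepatocytes: Bmp2 sets iron handling, and Wnt2, Wnt9b and Rspo3, made mainly near the central vein, maintain the zonation of hepatocyte metabolism. Endothelium of larger vessels and of other capillaries is marked by genes such as Vwf, the clotting carrier von Willebrand factor, and Plvap, the protein of the diaphragms across endothelial pores.

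The label of the members was checked with Aqp1, an endothelial water channel that the rule did not use. After each barcode was thinned to 1000 UMIs, Aqp1 had a UMI in 25 of 30 and 89 of 98 control members and in 17 of 27 and 12 of 24 NASH members. In C1q-high barcodes (at least 5 C1q UMIs per 1000, mostly macrophages) thinned the same way, the share with Aqp1 was 2.19%, 1.85%, 1.65% and 0.783% in the same order. The transcripts of the sorted proteins were measured next. At 1000 UMIs Ptprc had a UMI in 0 of 30, 8 of 98, 1 of 27 and 1 of 24 members, against 35.1%, 44.9%, 27.3% and 24.5% of C1q-high barcodes, and the 0 of 30 allows a share with a UMI of up to 10.0% (3 counts of the total), which does not limit the share of cells that express the gene. Mcam had a UMI in 2, 13, 6 and 1 of these members and in at most 0.285% of C1q-high barcodes. At full depth Ptprc had a UMI in 7, 18, 9 and 7 members and Mcam in 9, 28, 11 and 7. The members thus held endothelial RNA, and some of them carried the transcript of the protein that the sort was set against. Some also carried the transcript of the leukocyte protein.

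The members held 102739, 255966, 152585 and 159006 UMIs in control 1, control 2, NASH 1 and NASH 2, with medians of 3014.5, 1924, 4368 and 4579 per barcode, so NASH members were the deeper ones. No member barcode was shared by 2 libraries, and 0 of the 182 were among the 79 putative doublets. The number of putative doublets was set in advance, at 0.8% per 1000 kept barcodes, and filled with the highest scores. The rule itself left out barcodes high in C1q or with a Cd3e or Cd79a UMI. The 0 therefore does not show that the members were single cells. Genes of other cells were present in some: 33 members (4, 10, 8 and 11) had at least 2 per 1000 UMIs summed over 18 genes of macrophages, lymphocytes, stellate cells and platelets. Over all deposited barcodes the libraries held 1550, 1805, 1639 and 1933, and the median depth of kept barcodes was 3395 and 3053 UMIs in the control and 7633 and 7469 in the NASH libraries.

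The genes of the rule are given as a description. Kdr, the main receptor for vascular endothelial growth factor (VEGF), stood at 1645 and 1836 counts per 1000000 UMIs (CPM) in the summed control members and at 472 and 503 in NASH. Clec4g, a sinusoidal lectin, stood at 2083 and 2645 CPM in control and 492 and 447 in NASH. Tek, the angiopoietin receptor, was closer, at 331 and 371 against 282 and 220.1 CPM. At full depth most members lay above the smallest counts that the rule accepts. Of 182, 143 had at least 2 Kdr UMIs and 133 had 3 or 4 of the partner genes, while 39 had 1 Kdr UMI and 11 had 1 partner gene. Depth differed between the diets, and with barcodes thinned to 1000 UMIs the rule was met by 25, 84, 12 and 12 barcodes. In C1q, 15 members lay between 2 and 5 per 1000, and 10 barcodes that met the other terms lay just outside, between 5 and 8. Barcodes without Kdr but with at least 2 partner genes were more frequent in NASH, at 3, 5, 11 and 10, and 20 of these 29 had an Aqp1 UMI. Barcodes with Kdr and no partner gene numbered 1, 4, 13 and 7, of which 5 had an Aqp1 UMI. The genes that the rule used thus stood at different levels on the 2 diets.

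Members made up 2.27% (95% exact binomial interval 1.54 to 3.23) and 7.03% (5.76 to 8.47) of kept barcodes in control 1 and 2, against 1.70% (1.12 to 2.46) and 1.27% (0.817 to 1.89) in NASH 1 and 2. These intervals cover counting error only. The mean was 4.65% ± 3.36 (SD, n = 2) on the control diet and 1.48% ± 0.300 (SD, n = 2) on the NASH diet. Both NASH libraries lay below both control libraries, but control 2 alone held 101 of the 182 members, and without it the ratio of NASH to control moved from 0.319 to 0.653. The exact two-sided permutation test gave p = 0.33, the smallest value that 2 against 2 libraries allow. When any 2 of the 5 endothelial genes sufficed, in place of Kdr and a partner, the shares were 2.50%, 7.38%, 2.39% and 1.80%. The intervals of control 1 and NASH 1 overlapped under both rules. NASH barcodes were deeper, which makes a rule of single UMIs easier to meet. With each barcode thinned to 1000 UMIs before the first rule, the shares were 1.91%, 5.91%, 0.754% and 0.636%. The ratio of NASH to control was then 0.178, and the intervals of control 1 and NASH 1 still overlapped. The share of any cell type that passes a sort also depends on the gate.

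**Figure D1:**
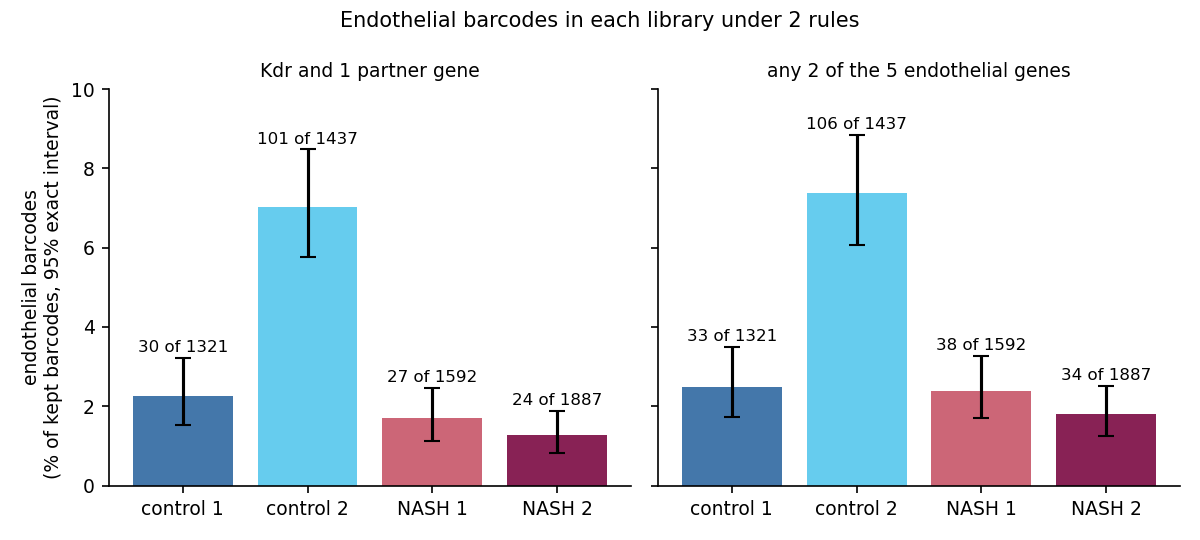
Endothelial barcodes as a percentage of kept barcodes (vertical axis) in each of the 4 libraries (horizontal axis), under the rule with Kdr and 1 partner gene (left) and with any 2 of the 5 endothelial genes (right). Bars are single libraries and error bars are 95% exact binomial intervals; control 2 stands at 7.03% and 7.38%, and the other 3 libraries at 1.27% to 2.50%.

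Diet was then compared within the members, on UMIs summed over the members of each library (edgeR quasi-likelihood test, Benjamini-Hochberg adjustment over 2676 tested genes, threshold 0.05). At this threshold 433 genes (16.2%) were called, 206 (7.7%) higher and 227 (8.48%) lower in NASH. Of the 433, 7 were genes of the rule. The median log2 fold change over the tested genes was -0.00141. The 2 libraries of each diet set the precision throughout, and leaving out control 2, the library with most members, lowered the number of called genes to 163.

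Most tested genes of liver sinusoidal endothelium fell in NASH. Of 27 tested genes of the sinusoidal identity list that were not in the rule, 19 fell, 0 rose and 8 were not called, with a median log2 fold change of -1.30, where 8.48% of all tested genes fell. Stab2, the hyaluronan scavenger receptor stabilin-2 (chromosome 10, 86841198 to 87008025, GENCODE vM21 on mm10), stood at 973 and 973 CPM in control 1 and 2 and at 197 and 88.0 CPM in NASH 1 and 2. Both NASH libraries were far below both control libraries, with a log2 fold change of -2.69 ± 0.32 (SE, n = 2 libraries a diet, edgeR adjusted p = 1.87e-07). Lyve1, another hyaluronan receptor (chromosome 7, 110850607 to 110863239), stood at 409 and 418 CPM against 78.6 and 37.7 CPM, a log2 fold change of -2.74 ± 0.35 (edgeR adjusted p = 6.53e-07). Dnase1l3, a secreted nuclease that digests DNA in blood (chromosome 14, 7964533 to 7994573), stood at 2054 and 2137 CPM against 387 and 270.4 CPM, a log2 fold change of -2.59 ± 0.27 (edgeR adjusted p = 2.29e-08). The control libraries differed from each other by little in these 3 genes, although their numbers of members differed by over 3 times.

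Other named members of the list fell as well. Plxnc1, a semaphorin receptor, had a log2 fold change of -2.67, Bmp2 of -2.34, Ehd3, an endocytic recycling protein, of -1.91, F8, clotting factor VIII, of -1.70, and Gpr182, an atypical chemokine receptor, of -1.60. Aqp1 fell from 2278 and 2942 CPM to 1127 and 949.6 CPM, a log2 fold change of -1.25 ± 0.24 (edgeR adjusted p = 3.29e-04). Genes shared by most endothelium were on both sides of the threshold. Cdh5, the junction protein VE-cadherin, Esam, another junction protein, Tie1, a receptor kinase, and Egfl7, a secreted endothelial factor, fell, with log2 fold changes of -0.96, -1.30, -1.25 and -0.75. Eng, a TGF-beta co-receptor, stood at 1246 and 1754 CPM in control and 898 and 1138 CPM in NASH, with a log2 fold change of -0.48 ± 0.25 (edgeR adjusted p = 0.207). Pecam1, the junction protein CD31, chosen after its values were seen, stood at 535 and 649 CPM against 472 and 421 CPM, with a log2 fold change of -0.33 ± 0.27 (edgeR adjusted p = 0.445). The differences in Eng and Pecam1 did not pass the test, which does not show that the levels were equal.

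Of 12 tested scavenger and uptake receptors 6 fell, where 8.48% of all tested genes fell, and 0 rose, with a median log2 fold change of -0.81. The list shares 3 of these 6 with the identity list. Without control 2 the number was 4, and with RLE factors 1 receptor rose. Mrc1, the mannose receptor, stood at 925 and 1281 CPM in control and 295 and 252 CPM in NASH, a log2 fold change of -1.94 ± 0.28 (edgeR adjusted p = 5.87e-06). Fcgr2b, the inhibitory Fc receptor that takes up immune complexes (chromosome 1, 170958617 to 170976547), stood at 1518 and 2192 CPM against 609.5 and 503 CPM, a log2 fold change of -1.66 ± 0.26 (edgeR adjusted p = 1.90e-05). Stab1, stabilin-1, stood at 506 and 1172 CPM against 295 and 189 CPM, a log2 fold change of -1.75 ± 0.36 (edgeR adjusted p = 3.54e-03). The libraries of the 2 diets did not overlap in any of these 3 receptors, which held for 432 of the 433 called genes. Cd36, a fatty acid and lipoprotein receptor, overlapped between the diets, at 331 and 519.6 CPM against 623 and 346 CPM. Ctsl, the lysosomal protease cathepsin L, fell as well, from 2394 and 2321 CPM to 642 and 522 CPM (log2 fold change -1.93 ± 0.25, edgeR adjusted p = 6.78e-07), while in the endocytosis and lysosome list as a whole 5 genes fell and 4 rose of 23 tested, against 8.48% and 7.7% of all tested genes.

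**Figure D2:**
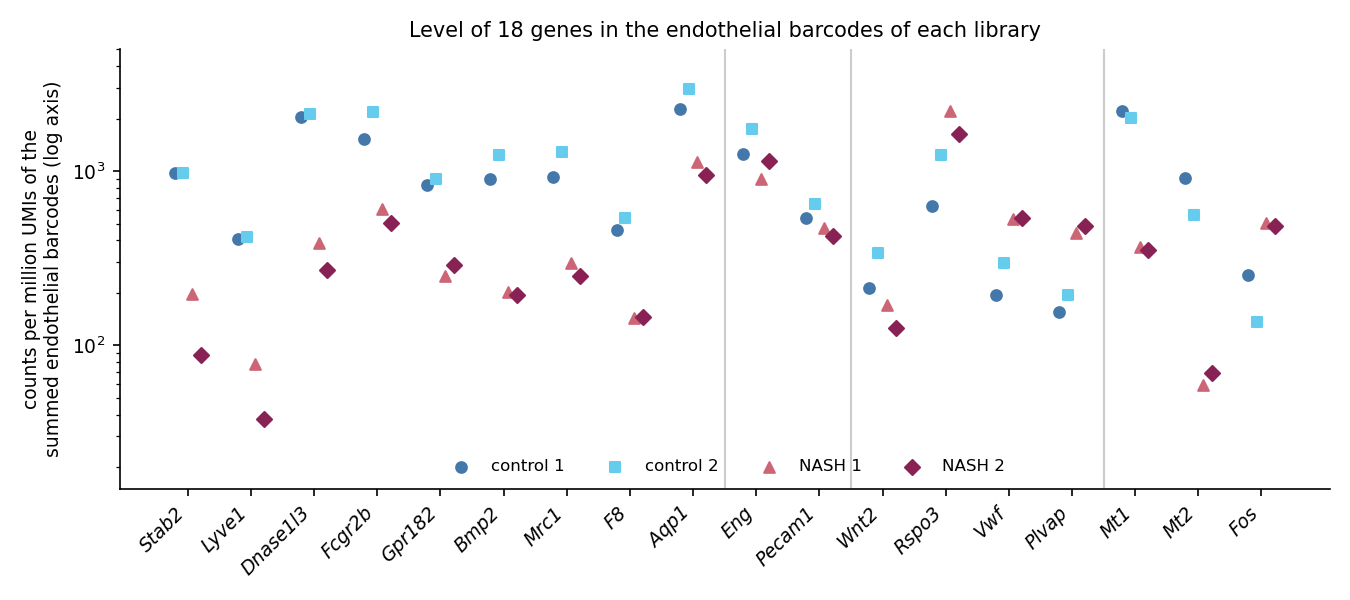
Counts per 1000000 UMIs (CPM, vertical log axis) of 18 genes (horizontal axis) in the summed endothelial barcodes, with 1 point for each library. From left to right stand sinusoidal genes, Eng and Pecam1, genes of the central vein side and of larger vessels or other capillaries, and the metallothioneins with Fos. Stab2 stands at 973 CPM in both control libraries and at 197 and 88.0 CPM in NASH. Plvap stands at 156 and 195 CPM against 439 and 484 CPM.

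The fall was visible barcode by barcode. At 1000 UMIs each, the summed UMIs of Stab2, Lyve1, Dnase1l3, Gpr182, Fcgr2b and Oit3 had a median of 6 and 8.5 in the members of control 1 and 2 and of 2 and 1 in NASH 1 and 2. The highest member of any NASH library held 7, against 18 and 23 in the control libraries. At least 3 of these UMIs were found in 23 of 30 and 80 of 98 control members and in 7 of 27 and 5 of 24 NASH members. The 6 genes were picked from lists with their results known, so these values describe the members and are not a further test. The decrease was also present where RNA of other cells was low. In members with under 2 per 1000 UMIs of the other-cell genes, a subset added after seeing the data, 14 of 27 list genes fell and 0 rose, and Stab2 had a log2 fold change of -2.22.

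**Figure D3:**
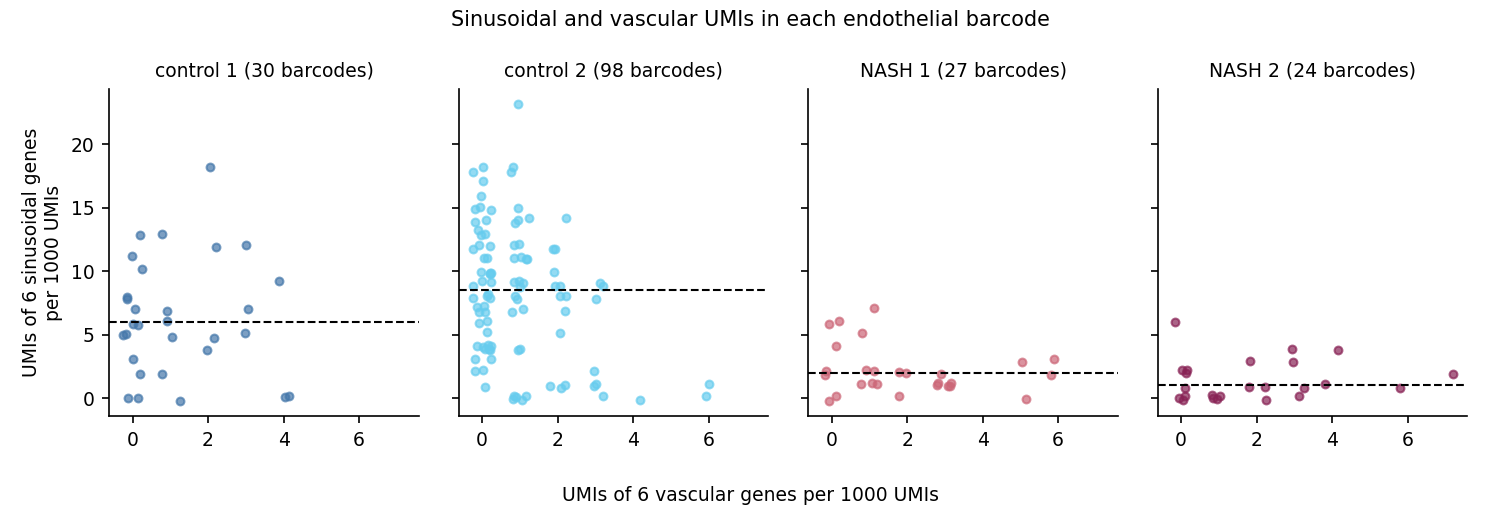
UMIs of 6 sinusoidal genes (vertical axis) and of 6 vascular genes (Vwf, Plvap, Cd34, Emcn, Clu, Ltbp4; horizontal axis) in each endothelial barcode thinned to 1000 UMIs, 1 panel per library. Points are barcodes, moved slightly at random so that they do not cover each other, and dashed lines are medians of the sinusoidal UMIs, at 6, 8.5, 2 and 1 from left to right.

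A few markers of larger vessels and of other capillaries rose. Of 12 tested genes of the vascular list 4 rose (Plvap, Vwf, Ly6a and Fbln2), where 7.7% of all tested genes rose, 1, Ltbp4, fell and 7 were not called, with a median log2 fold change of 0.43. Vwf (chromosome 6, 125546774 to 125686679) stood at 195 and 297 CPM in control and 531 and 541 CPM in NASH, a log2 fold change of 1.15 ± 0.28 (edgeR adjusted p = 4.41e-03). Plvap (chromosome 8, 71497765 to 71511752) stood at 156 and 195 CPM against 439 and 484 CPM, a log2 fold change of 1.44 ± 0.29 (edgeR adjusted p = 5.84e-04). At 1000 UMIs Vwf had a UMI in 3 of 30 and 10 of 98 control members and in 11 of 27 and 11 of 24 NASH members, and in at most 0.705% of C1q-high barcodes. Ly6a, the surface protein Sca-1, and Fbln2, the matrix protein fibulin-2, had log2 fold changes of 1.07 and 1.60. Leaving out control 1 ended the call of Vwf (log2 fold change 0.94) and Ly6a (0.85), and leaving out control 2 (2.07) or NASH 1 (1.47) that of Fbln2, while Plvap was called in each case. Cd34, a capillary marker, was too sparse to be tested, at 2, 2, 5 and 8 UMIs.

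Rspo3, an R-spondin that raises Wnt signaling (chromosome 10, 29452416 to 29535867), stood at 633 and 1242 CPM in control and 2202 and 1635 CPM in NASH, a log2 fold change of 1.09 ± 0.27 (edgeR adjusted p = 6.97e-03). Without control 1, the lower control library, the log2 fold change was 0.72 and the gene was no longer called. The share of members with a Rspo3 UMI at 1000 UMIs was 16.7% and 22.4% in control and 40.7% and 62.5% in NASH. Wnt2, a ligand of the same pathway, was not called, at 214 and 339.9 CPM against 170.4 and 126 CPM (log2 fold change -0.88 ± 0.32, edgeR adjusted p = 0.0520), and Kit, a receptor tyrosine kinase of the central side of the sinusoid, fell from 204 and 258 CPM to 39.3 and 18.9 CPM (log2 fold change -2.92 ± 0.45, edgeR adjusted p = 1.47e-05). In the central list as a whole 1 gene rose, 1 fell and 6 were not called. Over all tested genes 7.7% rose and 8.48% fell. Of 6 tested genes of the portal list 3 fell (Adam23, Chst2 and Ltbp4), where 8.48% of all tested genes fell, and 0 rose. Adam23 stood at 652 and 711 CPM against 39.3 and 138 CPM. Wnt9b, Dll4, Efnb2 and Jag1, ligands of the Wnt, Notch and ephrin families, had at most 17 UMIs in a library and were not tested.

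Members were also described by whether they held a Rspo3 UMI. Rspo3 itself differed between the diets, so the groups made this way are not like groups across diets, and the values carry no test. Those with Rspo3 numbered 6 of 30, 24 of 101, 14 of 27 and 17 of 24. In them Vwf was alike across the libraries, at 679.8, 814, 832 and 775 CPM, and Plvap stood at 604, 483, 591 and 714 CPM. In members without Rspo3, Vwf was at 26.2 and 40.9 CPM in control and at 172 and 164 CPM in NASH. Stab2 in members with Rspo3 was at 566 and 236 CPM in control and 84.4 and 102 CPM in NASH. In members without it, Stab2 was at 1115 and 1338 CPM against 330.0 and 65.6 CPM. Lyve1 was at 264 and 153 CPM with Rspo3 in control and had 0 and 1 UMI there in NASH. The split depends on depth, since a shallow barcode can miss a Rspo3 UMI, and NASH members were deeper; how much of the change in Vwf and Plvap the larger part of Rspo3 members accounts for was not tested.

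Of 9 tested VEGF and angiopoietin receptor genes outside the rule 6 fell, where 8.48% of all tested genes fell, and 0 rose, with a median log2 fold change of -1.17. This count rests on control 2: without it 1 of 9 fell, and without NASH 1 it was 3 of 10. In members with little RNA of other cells it was 3 of 9. Flt4, Flt1 and Tie1, among the 6 that fell, are also counted in the sinusoidal identity list. Flt4, the receptor for VEGF-C, stood at 369.9 and 316 CPM against 85.2 and 94.3 CPM (log2 fold change -1.82 ± 0.33, edgeR adjusted p = 1.46e-04). Nrp2, a co-receptor for VEGF and semaphorins, had a log2 fold change of -1.59, Robo4, a vessel-stabilising receptor, of -1.70, and Flt1, a VEGF decoy receptor, of -1.17. Of 15 tested angiocrine genes 3 fell and 2 rose, against 8.48% and 7.7% of all tested genes. Bmp2, which induces the iron hormone hepcidin in hepatocytes (chromosome 2, 133552159 to 133562885), fell from 895 and 1234 CPM to 203 and 195 CPM (log2 fold change -2.34 ± 0.29, edgeR adjusted p = 3.80e-07). Cyr61, a matricellular protein (chromosome 3, 145646976 to 145649981), rose from 19.5 and 66.4 CPM to 269 and 308 CPM (log2 fold change 2.57 ± 0.39, edgeR adjusted p = 1.10e-05). Timp3, a metalloproteinase inhibitor, was the 1 gene called of 10 in the matrix list, where 8.48% of all tested genes fell, with a log2 fold change of -1.46. Among the steepest falls were Cyp26b1, which degrades retinoic acid, at 234 and 402 CPM against 26.2 and 18.9 CPM (log2 fold change -3.76), Col13a1, a transmembrane collagen (-3.14), and Mertk, a receptor for apoptotic cells (-2.80).

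The metallothioneins, small proteins that bind zinc and copper, fell in the members. Mt1 (chromosome 8, 94179082 to 94180327) stood at 2199.7 and 2004 CPM in control and 367 and 352 CPM in NASH, a log2 fold change of -2.45 ± 0.27 (edgeR adjusted p = 2.97e-08). Mt2 (chromosome 8, 94172664 to 94173568) stood at 915 and 563 CPM against 59.0 and 69.2 CPM, a log2 fold change of -3.39 ± 0.35 (edgeR adjusted p = 2.29e-08). In C1q-high barcodes of the same libraries Mt1 was at 298, 277, 316 and 330.1 CPM and Mt2 at 13.1, 14.04, 12.2 and 12.4 CPM, with log2 fold changes of 0.50 (edgeR adjusted p = 7.73e-03) and 0.20 (edgeR adjusted p = 0.425). The test of the difference between the classes (interaction of class and diet, library as block, edgeR) gave a log2 value of -2.85 ± 0.29 for Mt1 (adjusted p = 1.08e-19) and -3.48 ± 0.42 for Mt2 (adjusted p = 2.32e-13). At 1000 UMIs Mt1 had a UMI in 70.0% and 73.5% of control members and 22.2% and 25.0% of NASH members, against 20.0% to 24.8% of C1q-high barcodes.

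Mt1 and Mt2 are neighbours on the same strand, and since both fell the 250 bases before each RefSeq start are shown (GRCm38.p6). The RefSeq start of Mt1 lies 7 bases after the GENCODE start given above, so the last 7 bases of its window are in the GENCODE gene, and that of Mt2 lies 46 bases before its GENCODE start. The first window lies at chr8:94178839-94179088 and the second at chr8:94172368-94172617, both on the plus strand. Capitals mark matches on either strand to TGCACNC or TGCGCNC, the core letters of the metal response element bound by the zinc sensor MTF1.
Mt1: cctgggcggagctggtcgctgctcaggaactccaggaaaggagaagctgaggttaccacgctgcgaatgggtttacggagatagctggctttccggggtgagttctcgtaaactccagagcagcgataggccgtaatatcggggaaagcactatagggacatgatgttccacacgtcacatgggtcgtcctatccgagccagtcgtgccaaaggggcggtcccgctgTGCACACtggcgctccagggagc
Mt2: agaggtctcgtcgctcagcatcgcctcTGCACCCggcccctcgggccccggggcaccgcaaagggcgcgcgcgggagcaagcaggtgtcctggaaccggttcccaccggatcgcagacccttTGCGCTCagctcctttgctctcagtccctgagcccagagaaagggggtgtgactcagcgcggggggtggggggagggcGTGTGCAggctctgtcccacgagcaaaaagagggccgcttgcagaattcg
The Mt1 window held 1 match and the Mt2 window 3. Of all 32851 promoter windows of this length in RefSeq 21.4% held at least 1 match and 1.26% at least 3. A match describes letters and does not show a bound site, and bases beyond the windows were not searched.

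Some immediate-early genes, which switch on within minutes of a stimulus, and heat-shock genes rose in the members. Of 16 tested genes of the immediate-early and stress list 5 rose, where 7.7% of all tested genes rose, 0 fell and 11 were not called, with a median log2 fold change of 0.86. Those that rose were Fos, Jun and Ier3 and the heat-shock genes Dnajb1 and Hsp90aa1. In NASH 2 a single barcode gave 35 of the 80 Hsp90aa1 UMIs. Egr1 and Junb were not called (edgeR adjusted p of 0.212 and 0.0678). The number was 10 without control 1 and 3 without control 2. Fos (chromosome 12, 85473890 to 85477273) stood at 253 and 137 CPM in control and 505 and 484 CPM in NASH, a log2 fold change of 1.53 ± 0.30 (edgeR adjusted p = 5.08e-04). In C1q-high barcodes Fos went the other way, at 514 and 302 CPM against 102 and 103 CPM. In the interaction 9 of 24 genes of the list were higher in the members, where 201 of 10733 genes (1.87%) were called, 122 (1.14%) higher and 79 (0.736%) lower. Fos had an interaction of 3.22 ± 0.34 (edgeR adjusted p = 9.09e-18) and Junb of 2.65 ± 0.32 (edgeR adjusted p = 2.23e-13). In members without Rspo3, a subset chosen by a gene that itself differed between the diets, Fos had a log2 fold change of 0.35 (edgeR adjusted p = 0.737) and 0 of 7 list genes were called. Without control 2, whose members were the shallowest, Fos was no longer called, with a log2 fold change of 1.05.

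Other genes also changed differently in the members and in C1q-high barcodes, where 5071 of 11011 genes (46.1%) were called for diet. Cd9, a tetraspanin, stood at 331 and 160.2 CPM in control members and 492 and 371 CPM in NASH members, but at 13.7 and 14.04 against 441 and 310.0 CPM in C1q-high barcodes, an interaction of -3.97 ± 0.37 (edgeR adjusted p = 1.67e-22). Cd93, an endothelial C-type lectin-like receptor, fell in the members (log2 fold change -1.05) and rose in C1q-high barcodes (2.51), with an interaction of -3.42 ± 0.42 (edgeR adjusted p = 9.33e-13). Fcgr2b fell in the members and rose in C1q-high barcodes (log2 fold change 1.16), with an interaction of -2.69 ± 0.30 (edgeR adjusted p = 1.05e-15). Vcam1, the adhesion molecule for leukocytes, fell in C1q-high barcodes (log2 fold change -1.35) and had a log2 fold change of 0.66 in the members that was not called (edgeR adjusted p = 0.0905), with an interaction of 2.07 ± 0.30 (edgeR adjusted p = 4.45e-09). Klf2, the flow-responsive transcription factor, was at 555 and 254 CPM in control members and 387 and 472 CPM in NASH members and fell in C1q-high barcodes, with an interaction of 1.61 ± 0.33 (edgeR adjusted p = 1.60e-04). Lyve1 and Mrc1 fell in both classes, and their interactions of -0.06 ± 0.68 and 0.08 ± 0.30 (SE, n = 2 libraries a diet) were not called. Both classes came from the same libraries, and sinusoidal RNA was also found in C1q-high barcodes: at 1000 UMIs Stab2 had a UMI in 7.98% and 9.46% of them in control and 3.71% and 3.37% in NASH, against at most 2.06% of lymphoid barcodes.

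**Figure D4:**
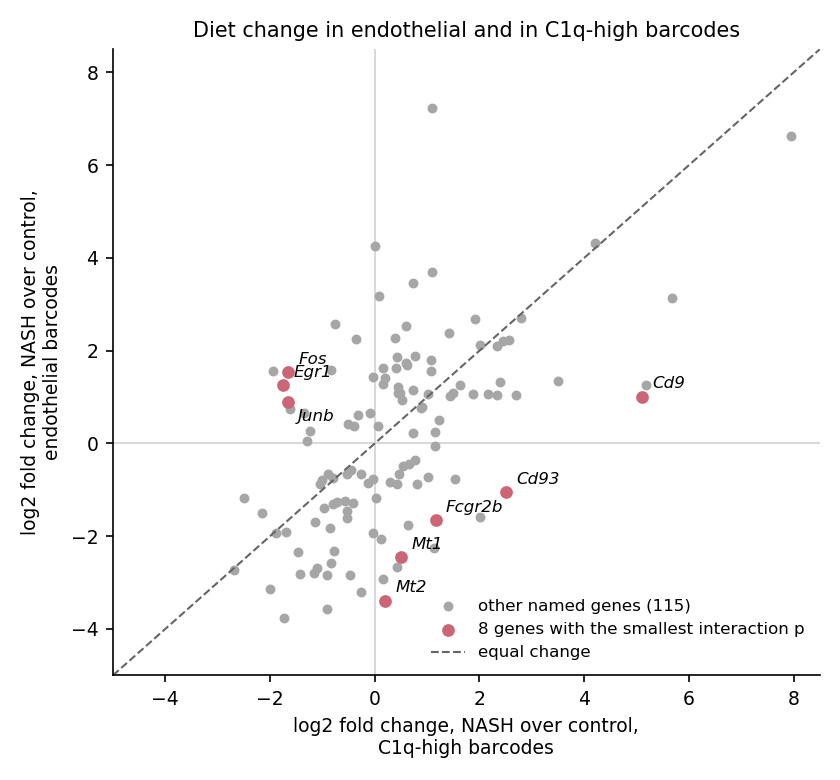
Log2 fold change of NASH over control in C1q-high barcodes (horizontal axis) and in endothelial barcodes (vertical axis) for the 123 named genes with a value in both, each from 2 libraries a diet. Red points are the 8 genes with the smallest interaction p, and the dashed line marks equal change; Mt1, Mt2, Fcgr2b, Cd93 and Cd9 lie below it and Fos, Egr1 and Junb above.

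Macrophage markers did not all change in the same direction. Markers of lipid- and scar-associated macrophages had 9 tested genes, of which 7 rose, where 7.7% of all tested genes rose; without control 2 or NASH 1 the number was 4. Of 8 tested markers of Kupffer cells and other macrophages 2 rose (Csf1r and Ctsc), 2 fell and 4 were not called. Over all tested genes 7.7% rose and 8.48% fell. The 2 that fell were Slc40a1, the iron exporter ferroportin (log2 fold change -1.50), and Fcna, a ficolin (-1.18). Some genes of the lipid- and scar-associated list had a UMI in several members. In NASH 1 and 2 Lgals3 was found in 16 of 27 and 11 of 24 and Cd63 in 13 and 12. Trem2 was found in 10 and 7, and Capg in 9 and 10. The highest member gave 16 of 75 and 36 of 81 Lgals3 UMIs and 15 of 42 and 11 of 48 Cd63 UMIs. For Trem2 it was 9 of 22 and 6 of 15, and for Capg 6 of 19 and 4 of 20. Trem2, a lipid receptor of such macrophages, had 1, 1, 22 and 15 UMIs, a ratio of NASH to control of 21.3 (95% counting interval 5.49 to 182). Spp1, osteopontin, had 0, 0, 11 and 11 UMIs and was at least 8.44-fold higher against a floor of 3 UMIs over the control group. A single barcode gave 8 of the 11 in NASH 1 and another 9 of the 11 in NASH 2. Other genes had a large part of their UMIs in single barcodes as well. Lpl, lipoprotein lipase, had 4, 8, 92 and 39 UMIs (log2 fold change 3.71 ± 0.46, edgeR adjusted p = 9.46e-06), and a single barcode gave 33 of the 92 and another 20 of the 39. Plek, a protein of platelets and leukocytes, had 16 of its 26 UMIs in NASH 1 and 20 of 25 in NASH 2 in 1 barcode each, and Pf4, a platelet gene, had 495 of 498 UMIs in NASH 2 in 1 barcode. The summed level of 13 Kupffer cell and macrophage markers outside the rule, in the members, was 1363 and 2606 CPM in control and 4240 and 2472 CPM in NASH, so the diets overlapped. In C1q-high barcodes it was 20892 to 31968 CPM. For the 12 lipid- and scar-associated markers the summed level was 1158 and 938 CPM in control members and 3205 and 2296 CPM in NASH members. In C1q-high barcodes that sum was 1967 and 2140 CPM against 8588 and 7701 CPM. The median log2 fold change there was 4.83 for these markers and -0.79 for the Kupffer cell and macrophage markers. C1qa, C1qb and C1qc, which the rule limited, were higher in both NASH libraries of members than in both control libraries. When members with RNA of other cells were left out, 3 of 6 tested genes of the lipid- and scar-associated list rose, Cd63 and Lgals3 among them. Trem2, Spp1, Lpl and Plek then had too few UMIs to be tested. The part of RNA from other cells in these increases was not tested further.

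Of 13 tested lipid genes 4 rose (Lpl, Apoe, Fabp5 and Pltp), where 7.7% of all tested genes rose, and 0 fell. With C1q under 2 per 1000 it was 0 of 10, and without control 1 it was 2 of 13. Apoe, the lipoprotein ligand, stood at 4137 and 4688 CPM against 9542 and 7974 CPM (log2 fold change 1.08 ± 0.20, edgeR adjusted p = 2.51e-04), while in C1q-high barcodes it was at 12910.0 to 49947 CPM. Fabp4, a fatty acid carrier of capillary endothelium, was at 1888 and 2696 against 2962 and 3182 CPM and was not called (edgeR adjusted p = 0.124). Of 6 tested genes of antigen presentation on MHC class II 2 rose, where 7.7% of all tested genes rose. These were Ctss, the protease of the invariant chain, and H2-Ab1, a class II chain. H2-Ab1 went from 535 and 164 CPM to 1678 and 1169.8 CPM (log2 fold change 2.23 ± 0.53, edgeR adjusted p = 0.0380). Cd74, the invariant chain, had a log2 fold change of 2.11 ± 1.02 and was not called (edgeR adjusted p = 0.353), and a single barcode gave 116 of its 164 UMIs in control 1 and another 355 of 794 in NASH 1. The number of called class II genes depended on the setting: it was 5 of 5 at no more than 5% mitochondrial UMIs and after thinning, 5 of 6 with the replicate block and 5 of 7 without control 1, but 0 of 5 by edgeR without the members that carried RNA of other cells. There H2-Ab1 had a log2 fold change of 1.86 ± 1.08 (edgeR adjusted p = 0.433), and over the alternatives run its lowest value was 1.49. Of 10 tested interferon-stimulated genes 3 rose (Ifi27l2a, Isg15 and Irf7), where 7.7% of all tested genes rose, and 0 fell. Isg15, a ubiquitin-like protein, stood at 38.9 and 27.3 CPM against 125 and 132 CPM (log2 fold change 2.12 ± 0.47, edgeR adjusted p = 1.68e-03). In members with little RNA of other cells Isg15 kept a log2 fold change of 2.12 (edgeR adjusted p = 0.0111), and without control 2 it was not called (1.78, edgeR adjusted p = 0.144).

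The other lists held few called genes. Of 27 tested genes of oxidative phosphorylation 3 rose (Cox5a, Atp5b and Atp5g1, subunits of complex IV and of ATP synthase), where 7.7% of all tested genes rose, and 0 fell, with a median log2 fold change of 0.45. In NASH 2 single barcodes gave 21 of the 73 Cox5a, 40 of the 107 Atp5b and 33 of the 58 Atp5g1 UMIs. Their log2 fold changes of 1.08, 1.07 and 1.03 went as low as 0.51, 0.22 and 0.12 over the alternatives run. Of 9 tested leukocyte adhesion genes 2 fell (Esam and Cd47), where 8.48% of all tested genes fell. Icam1 was not called, at 117 and 50.8 against 98.3 and 113 CPM. Of 7 tested chemokines Ccl5 and Ccl9 rose, where 7.7% of all tested genes rose. A single barcode held 83 of the 288 Ccl5 UMIs of NASH 2. Of 11 tested genes of the TGF-beta and BMP pathway 1 fell, and of 2 tested Notch genes Hes1 fell, where 8.48% of all tested genes fell. Hepatocyte markers were low, with a summed level of 226 to 730.0 CPM over 20 genes, and no gene of the cell cycle list had enough UMIs to be tested.

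**Figure D5:**
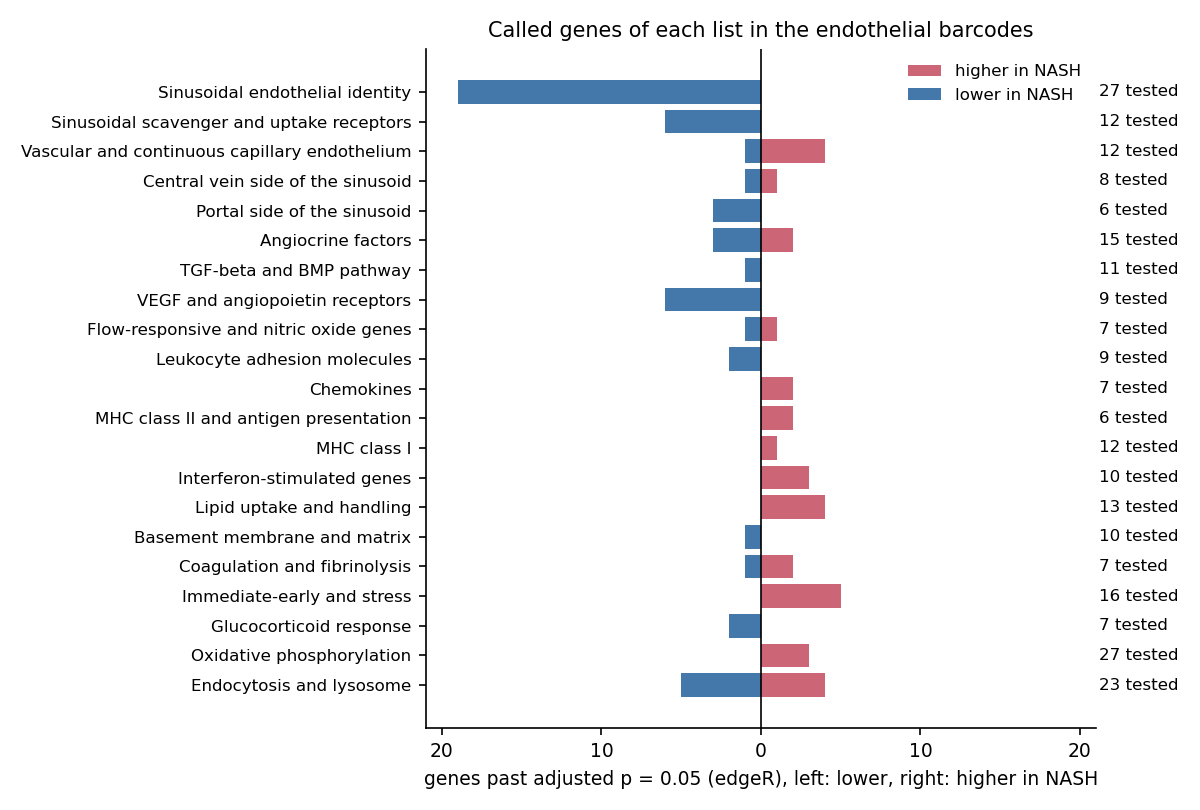
Number of genes of each list past the threshold in the endothelial barcodes (edgeR adjusted p = 0.05), drawn to the left where lower and to the right where higher in NASH, with the number of tested genes at the right edge. Genes can stand on more than 1 list, and lists with under 5 tested genes and the marker lists of other cells are not drawn; the sinusoidal identity list has 19 genes to the left and none to the right.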

How the data were processed

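Droplet single-cell RNA sequencing was done on sorted liver cells of 4 libraries, 2 a diet. The authors deposited raw UMI counts per gene and barcode, which are whole numbers and not normalized. Per the submitters' processing notes Cell Ranger, Seurat and mm10 were used, with no version stated in those notes. The libraries held 5513953 to 15619962 UMIs.

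Kept barcodes had 200 genes or more and mitochondrial UMIs of 10% or less (Python 3.11.15, scanpy 1.11.5, numpy 2.4.6, scipy 1.17.1, pandas 2.3.3, matplotlib 3.10.9). Doublets were scored with Scrublet and left in. Counts of the members were summed per library and tested with edgeR 4.0.16 (R 4.3.3, limma 3.58.1; TMM factors, filterByExpr, robust quasi-likelihood fit). The interaction of class and diet was fitted on member and C1q-high sums with the library as block. DESeq2 1.42.0 was an alternative. CPM is UMIs per 1000000 of the sum. Methods were tested on simulated data.

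Members and lists were chosen with earlier results of these data known. Genes selected for naming were the 15 largest changes each way among called genes with no overlap between diets. These needed 50 CPM or more in the higher diet. Also selected were the 4 smallest p of each list, the 8 smallest adjusted p of the interaction, and a set of endothelial genes always given. Genes named for a list count, a sparse level or a single barcode outside these were chosen after their values were seen. Not every selected gene is described above. Left out of the 15 largest rises were Ms4a6c, Fermt3, Acp5, Fxyd6, Rgs10 and Ednrb. Left out of the 15 largest falls were Ltc4s, Shank3, Gle1, Pcdh12, Adm, Aass and Enpep. Enpep was the steepest of the 15 falls (log2 fold change -4.50, with 15, 17, 0 and 1 UMIs). Of 558 list symbols 550 were found. Of 27998 gene IDs 98.74% matched GENCODE vM21. Subsets by RNA of other cells, Clec4g, Rspo3, 2000 UMIs or any 2 endothelial genes were chosen after seeing the data.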

Additional observations from a re-analysis of the deposited data

Results flagged for a closer look

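For 8 genes the difference between diets was not the same in endothelial and in C1q-high barcodes, by the interaction of class and diet (edgeR). They are the named genes with the smallest interaction p, and both classes come from the same 4 libraries, 2 a diet. The log2 interaction was negative, meaning a lower NASH to control ratio in endothelial barcodes, for Cd9 (-3.97, adjusted p = 1.67e-22), Mt2 (-3.48, adjusted p = 2.32e-13), Cd93 (-3.42, adjusted p = 9.33e-13), Mt1 (-2.85, adjusted p = 1.08e-19) and Fcgr2b (-2.69, adjusted p = 1.05e-15). It was positive for Fos (3.22, adjusted p = 9.09e-18), Egr1 (3.04, adjusted p = 1.89e-14) and Junb (2.65, adjusted p = 2.23e-13). Within endothelial barcodes alone Egr1 and Junb were not called, with edgeR adjusted p of 0.212 and 0.0678. In members without a Rspo3 UMI the interactions of Fos, Egr1 and Junb were no longer called.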

How the results depend on the processing

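With 2 libraries a diet and 24 to 101 members in each, the number of called genes moved with the setting while the direction of the sinusoidal genes did not: in each alternative run, 13 to 21 genes of the sinusoidal list fell and 0 rose. The 433 genes called for diet became 136 with DESeq2, 204 with C1q under 2 per 1000, 232 at no more than 5% mitochondrial UMIs, 57 in members with no macrophage gene UMI, 113 after thinning to 1000 UMIs and, in subsets chosen after seeing the data, 218 with little RNA of other cells, 171 without Rspo3 and 245 with at least 2000 UMIs. The 201 interaction genes became 44 with DESeq2, 65 at no more than 5% mitochondrial UMIs, 5 with no macrophage gene UMI, 133 with little RNA of other cells, 50 without Rspo3 and 343 with any 2 endothelial genes. Leaving out 1 library gave 163 (without control 2) to 344 (without control 1) genes for diet and 69 (without control 2) to 169 (without NASH 2) for the interaction; without NASH 1 these were 283 and 107, and without NASH 2 the diet count was 250. The difference in share, -3.17 points, was -6.88 at no more than 5% mitochondrial UMIs, -11.7 over C1q-low barcodes, -1.19 (exact permutation p = 1) with no macrophage gene UMI, and -5.54 to -0.787 with 1 library left out. Subsets hold fewer members and fewer tested genes; otherwise the cause was not tested. Pltp reversed to a log2 fold change of -0.045 at no more than 5% mitochondrial UMIs, and Dcn, not called, to -4.16 without NASH 2 (1.38, called, without NASH 1). Of 93 called genes followed, 32 kept their call in every alternative in which they were tested, Stab2, Dnase1l3, Bmp2, Mt1 and Mt2 among them, and 61 lost it in at least 1. The replicate numbers are only names, with a correlation of -0.01 between same-numbered deviations; with the replicate block 414 genes were called, 368 of them among the 433.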
